A study of Mus musculus with 37 samples.

Results

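Oxidative phosphorylation runs on multi-subunit complexes in the inner mitochondrial membrane. Complex I takes electrons from NADH, complex III passes them to cytochrome c, complex IV hands them to oxygen, and ATP synthase uses the proton gradient that these pumps build to make ATP. The nuclear subunits are made from many separate genes and are assembled with a few subunits encoded by mitochondrial DNA, and macrophages activated through TLR4 are known for a shift from oxidative phosphorylation to glycolysis.

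The nuclear genes of these 4 complexes were taken from the table by their symbols: Nduf for complex I, Uqcr for complex III, Cox followed by a digit from 4 to 8 for complex IV, and Atp5 for ATP synthase. This gave 88 of 24016 genes, of which 45 were Nduf, 8 Uqcr, 18 Cox and 17 Atp5 genes. Among them, 15 were core subunits, 56 accessory subunits, 8 alternative isoforms and 7 complex I assembly factors (Ndufaf1 to Ndufaf7), and Atp5s and Atp5sl are named like subunits without being structural parts of the enzyme. Ndufa4, found with complex IV, was counted with the accessory subunits of complex I by its symbol. The subunits encoded by mitochondrial DNA were not analysed here. Complex II and cytochrome c were kept as separate lists, as was Cyc1 (cytochrome c1), a core subunit of complex III outside the naming rule.

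BMDMs were grown from the marrow of male wild-type (WT) C57BL/6J and Arntl-/- mice, 6 to 9 weeks old, by 6 days of culture with M-CSF. Arntl encodes the clock factor Bmal1 and was deleted in the whole animal, and the number of mice behind each library is not given in the sources used here. Cells of each genotype were treated with KLA (Kdo2-lipid A, a purified TLR4 agonist) for 0, 6, 24 or 48 h. PolyA RNA was sequenced in 8 libraries, 1 per genotype and time, so a comparison at a single time has no replicates and no test. Genotype was tested over the 4 times together, with time as a block. The error in that test is the scatter of the genotype difference over the times, and variation between mice is not measured by it. The source of the WT mice is given both as littermates and as purchased animals.

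The question for these genes was whether the 4 complexes differed in level between the genotypes and over the KLA time course, compared with other genes of like level and length. Levels are FPKM per 10000000 reads divided by a library size factor (scaled FPKM). A log2 ratio compares 2 libraries after adding 0.1 to each scaled FPKM. The filter on low values (a mean over the 8 libraries of scaled FPKM times exon length in kb of at least 50) kept 9897 genes and 77 of the 88 genes of the complexes: 42 of complex I, 8 of complex III, 11 of complex IV and 16 of ATP synthase. Differences were counted against a 1.5-fold line, beside the share of all 9897 genes past the same line. Intervals given for single genes are exact binomial intervals at the 95% level on the reads, and cover counting error only.

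The libraries held between 8587560 reads (Arntl-/- 48 h) and 27036783 reads (WT 6 h) on genes, and the least-read of the 77 genes had between 72 and 336 reads in a library. Arntl itself was at a scaled FPKM of 32.3 to 38.7 in the WT libraries and of 11.3 to 20.2 in the Arntl-/- libraries. All 9 macrophage markers in the table passed the filter, and their summed level was 21419, 16036, 28065 and 39202 in WT and 18017, 21650, 26246 and 35171 in Arntl-/- cells after 0, 6, 24 and 48 h. Markers of dendritic, T and NK, B and erythroid cells summed to at most 15.0 per list in any library, and none of their genes passed the filter. The 7 neutrophil and precursor markers in the table summed to 490.8, 511.9, 604.9 and 928.0 in WT and 860.7, 978.3, 831.1 and 940.5 in Arntl-/- cells, and 2 of them passed the filter, S100a8 and S100a9. S100a9, also a monocyte gene, was at 163.6, 207.4, 148.4 and 10.1 in WT and 402.9, 427.7, 370.8 and 9.0 in Arntl-/- cells. S100a8 was at 308.3, 281.9, 428.9 and 910.3 in WT and 401.3, 513.5, 410.6 and 905.3 in Arntl-/- cells, so that it was close between the genotypes at 24 and 48 h and highest at 48 h, where S100a9 was lowest. Ltf, a granule gene, was at 18.9 in WT and 42.4 in Arntl-/- cells at 0 h (109 and 361 reads), while Elane and Mpo were at 3 or fewer reads in every library. Fibroblast and stromal markers summed to 393.8, 484.4, 547.0 and 1083 in WT and to 305.9, 343.3, 365.2 and 668.7 in Arntl-/- cells. Of them, Col1a1, Col1a2 and Col3a1 were lower in Arntl-/- cells at all 4 times and Pdgfrb at 0, 6 and 24 h. Dcn was higher at 0, 24 and 48 h (39.1 in Arntl-/- and 16.8 in WT cells at 0 h). Lum, below the filter, was higher at 0, 6 and 48 h. The part of the neutrophil or the stromal list in the differences below was not tested. In RNA from whole cultures, fewer cells of a type and less RNA per cell cannot be told apart.

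The complexes are thought to be controlled together through short promoter motifs, and E-boxes (CACGTG) are the letters that Bmal1 binds with its partner Clock. The 300 bases from 250 before to 50 after the start of each gene in mm9 were searched on both strands for 5 sets of letters. E-box letters stood in 7 of the 77 genes (9.09%), beside 10.4% of the 9897 genes and 7.75% of all 23954 genes with a window. The motif of nuclear respiratory factor NRF1 stood in 19.5% of the 77 genes, beside 11.5% and 5.96%. The ETS letters CCGGAAG stood in 22.1%, beside 21.1% and 11.2%, the YY1 letters ATGGCGG in 15.6%, beside 10.2% and 5.44%, and the CRE letters TGACGTCA in 5.19%, beside 3.56% and 2.39%. The E-box letters were thus no more frequent in these promoters than in those of the other genes measured. The median GC content of the windows was 57.0% for the 77 genes and 61.7% for the 9897 genes, and no motif count was adjusted for it.

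The stretches around the E-box letters (in capitals) are shown with up to 30 bases on each side and none past the start. They hold the letters that Bmal1 binds, and its binding in these genes was not examined here. Coordinates are those of mm9 and each sequence reads in the direction of its gene.
Atp5g1 (chr11:95936954-95937019, minus strand, 44 bases before the start): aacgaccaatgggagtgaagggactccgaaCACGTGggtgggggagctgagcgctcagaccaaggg
Atp5l (chr9:44728937-44729002, minus strand, 147 bases before the start): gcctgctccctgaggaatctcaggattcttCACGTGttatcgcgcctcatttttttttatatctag
Atp5sl (chr7:26404381-26404432, plus strand, 22 bases before the start): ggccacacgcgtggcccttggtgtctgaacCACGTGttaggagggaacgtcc
Ndufa7 (chr17:33961415-33961480, plus strand, 72 bases before the start): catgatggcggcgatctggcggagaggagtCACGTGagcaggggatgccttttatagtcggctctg
Ndufv1 (chr19:4012889-4012954, minus strand, 169 bases before the start): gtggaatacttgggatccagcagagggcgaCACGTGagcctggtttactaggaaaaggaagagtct
Uqcrq (chr11:53244486-53244551, minus strand, 188 bases before the start): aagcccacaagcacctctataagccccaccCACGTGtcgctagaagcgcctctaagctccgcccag

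Atp5a1 was the other gene with these letters. For the NRF1 and ETS letters, the 250 bases before the start are shown for 1 gene of each complex, the one with the highest level among those with either motif there. Matches on either strand are in capitals: ETS letters in Ndufb7 and Uqcr11, NRF1 letters in Atp5g3, and 2 NRF1 matches followed by 1 ETS match in Cox6a1.
Ndufb7 (chr8:86090407-86090656, plus strand): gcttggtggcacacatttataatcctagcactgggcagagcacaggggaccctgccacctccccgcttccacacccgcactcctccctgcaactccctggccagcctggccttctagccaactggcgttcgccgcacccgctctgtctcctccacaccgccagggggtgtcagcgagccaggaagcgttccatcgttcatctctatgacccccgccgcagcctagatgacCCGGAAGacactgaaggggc
Uqcr11 (chr10:79869567-79869816, minus strand): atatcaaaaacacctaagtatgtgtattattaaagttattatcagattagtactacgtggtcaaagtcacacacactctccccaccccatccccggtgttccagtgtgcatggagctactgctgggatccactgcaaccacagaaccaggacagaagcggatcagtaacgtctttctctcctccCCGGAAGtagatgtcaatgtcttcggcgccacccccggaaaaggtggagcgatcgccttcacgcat
Cox6a1 (chr5:115798965-115799214, minus strand): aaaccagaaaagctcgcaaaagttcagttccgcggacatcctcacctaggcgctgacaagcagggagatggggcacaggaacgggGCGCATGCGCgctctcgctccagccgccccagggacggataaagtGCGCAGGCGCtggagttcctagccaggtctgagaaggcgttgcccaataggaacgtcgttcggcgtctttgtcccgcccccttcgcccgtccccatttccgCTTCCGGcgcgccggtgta
Atp5g3 (chr2:73749352-73749601, minus strand): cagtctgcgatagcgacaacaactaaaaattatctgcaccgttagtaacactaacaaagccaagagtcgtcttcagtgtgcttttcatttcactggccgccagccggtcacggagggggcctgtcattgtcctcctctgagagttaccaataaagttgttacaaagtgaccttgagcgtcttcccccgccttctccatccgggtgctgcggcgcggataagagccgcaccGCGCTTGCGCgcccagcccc

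The 7 genes with E-box letters had median log2 ratios between the genotypes (Arntl-/- over WT) of -0.12, 0.33, -0.21 and -0.02 after 0, 6, 24 and 48 h. Over all 77 genes these medians were -0.16, 0.36, -0.14 and 0.03.

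The genes of the complexes were among the most highly expressed genes of the macrophages. The median of the 77 genes was a scaled FPKM of 459.2, above 87.5% of the 9897 genes, whose median was 125.8. Complex IV had the highest median level (890.0), ahead of ATP synthase (715.7), complex III (508.4) and complex I (360.4). Cox6a1 (mean 1440 over the 8 libraries), Cox4i1 (1385) and Atp5b, the catalytic subunit of ATP synthase (1332), led all 77 genes. Core subunits of complex I stood lower than its accessory subunits, with medians of 269.4 for 7 genes and 392.2 for 30 genes. The 3 core subunits of complex III within the naming rule (Uqcrc1, Uqcrc2 and Uqcrfs1) were at 345.0, 285.1 and 343.9, below each of its 5 accessory subunits (498.4 to 802.9). The 5 subunits of the F1 part of ATP synthase were at 1332 (Atp5b), 910.0 (Atp5a1), 833.0 (Atp5e), 634.2 (Atp5d) and 557.8 (Atp5c1).

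**Figure D1:**
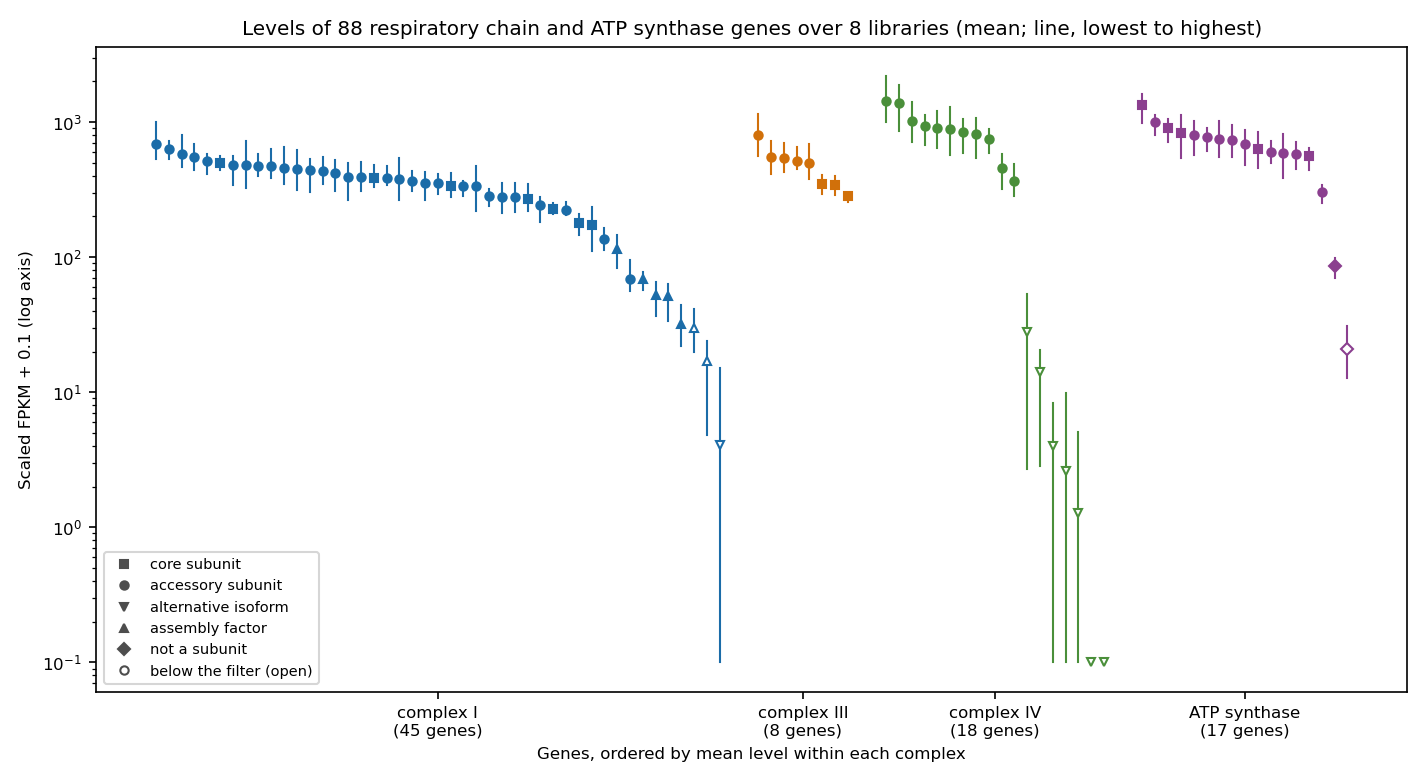
Mean scaled FPKM plus 0.1 (log axis) of the 88 genes over 8 libraries, with a line from the lowest to the highest library, grouped by complex and ordered by level. The lowest subunit lies at 69.2, while the 8 alternative isoforms, drawn as open triangles pointing down, lie at or below 27.7.

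Most paralogue sets of complex IV were carried by 1 ubiquitous form. Cox4i1 made up at least 99.47% of the summed level of Cox4i1 and Cox4i2 in every library, Cox6a1 at least 98.2% of the Cox6a pair, and Cox6b1 at least 99.1% of the Cox6b pair. Cox8a made up at least 99.5% of its trio, and Cox7b ranged from 283.0 to 485.4, while Cox7b2 and Cox8c had no read in any library, which allows up to 3 reads in each. Cox6a2 had at most 43 reads, Cox6b2 at most 15 and Cox8b at most 4. Cox4i2, an isoform known for its use under low oxygen, had 0, 5, 0 and 6 reads in WT and 1, 4, 0 and 9 reads in Arntl-/- cells. Cox7a1, the heart and muscle form, was listed at 2.62, 33.0, 21.6 and 49.97 in WT and at 20.5, 53.6, 12.2 and 28.1 in Arntl-/- cells from at most 58 reads. Its share of the Cox7a set was 0.23% to 4.31%. All 8 alternative isoforms were below the filter, as were Atp5s, Ndufaf5 and Ndufaf6.

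The c-ring of ATP synthase came from 3 genes that encode the same mature protein. Atp5g3 gave 46.7% to 49.9% of their summed level, Atp5g2 35.6% to 38.7% and Atp5g1 12.8% to 17.7%. This order was the same in the 8 libraries. Ndufa4, named for complex I but found with complex IV, ranged from 533.2 to 729.5, and its hypoxia-linked paralogue Ndufa4l2 had at most 19 reads. The other paralogue, AA467197, was at 61.8, 94.1, 73.6 and 108.9 in WT and 127.0, 112.5, 75.1 and 135.3 in Arntl-/- cells. At 0 h the Arntl-/- value of AA467197 was 2.05-fold the WT value, from 251 and 83 reads, and the genotypes were close at 24 h.

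Before KLA, the 77 genes stood slightly lower in the Arntl-/- library. Their median log2 ratio of Arntl-/- to WT was -0.16, beside -0.02 for all 9897 genes and -0.10 for genes of like level and length (for each gene, the 200 nearest genes outside the complexes). Relative to those like genes the median was -0.04, and without size factors it was -0.08. Of the 77 genes, 62 were lower and 15 higher, and all 11 complex IV genes were lower. Only Ndufaf4 and Ndufaf7 were at least 1.5-fold higher, beside 2.44% of all genes, and Ndufaf1 alone was at least 1.5-fold lower, beside 1.5%. Ndufaf1 alone of these 3 was past 1.5-fold relative to like genes. All 3 are assembly factors and not subunits of the finished complex. Of the 9 macrophage markers, 8 were lower as well, with a median log2 ratio of -0.24.

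At 6 h the order was turned round, and the 77 genes were higher in the Arntl-/- library. The median log2 ratio was 0.36, beside 0.01 for all genes and 0.28 for like genes, and 72 of the 77 genes were higher. Without size factors the median was 0.23. The medians were 0.31 for complex I, 0.28 for complex III, 0.49 for complex IV and 0.39 for ATP synthase. The like genes of each complex had medians of 0.25, 0.33, 0.49 and 0.36, and the differences that were left had medians of 0.12, 0.04, 0.06 and 0.06. The 9 macrophage markers had a median of 0.41, with 8 higher. Complex IV and ATP synthase had the highest medians both among the complexes and among their like genes. In complex I, the 30 accessory subunits were all higher (median 0.37, and 0.12 relative to like genes), whereas the 7 core subunits had a median of 0.15, and of -0.04 relative to like genes.

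At 6 h, 9 genes were at least 1.5-fold higher in Arntl-/- cells, that is 9 of 77 beside 1.9% of all genes. They were Ndufa2, Ndufa13, Ndufb7 and Ndufs6 of complex I, Cox4i1 and Cox7c of complex IV, and Atp5e, Atp5j2 and Atp5k of ATP synthase. Ndufaf4 was the gene at least 1.5-fold lower, beside 1.79% of all genes. Relative to like genes, none of these 10 was past 1.5-fold, and without size factors Ndufa2 and Ndufaf4 alone were. The largest ratio was that of Ndufa2, an accessory subunit of the arm of complex I that binds NADH, which was at 387.1, 301.0, 482.0 and 522.3 in WT and 367.9, 529.3, 396.6 and 520.3 in Arntl-/- cells. Its 6 h values lay apart, at a log2 ratio of 0.81 (0.67 to 0.95), and its values at the other times were closer. Ndufb7 was at 562.8, 343.9, 489.6 and 549.4 in WT and 386.3, 546.3, 455.2 and 539.7 in Arntl-/- cells. Its WT level was high at 0 h and low at 6 h and its Arntl-/- level the other way round, with log2 ratios of -0.54 (-0.70 to -0.38) and 0.67 (0.52 to 0.81). Cox4i1, a nuclear subunit that joins complex IV early in its assembly, was at 1349, 856.1, 1554 and 1884 in WT and 1038, 1334, 1233 and 1831 in Arntl-/- cells. Its log2 ratio at 6 h was 0.64 and that of its like genes 0.49, and 0.15 was left relative to like genes. Ndufs1 and Ndufs7, core subunits that carry iron-sulfur clusters, were on the other side at 6 h, at log2 ratios of -0.16 and -0.14.

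**Figure D2:**
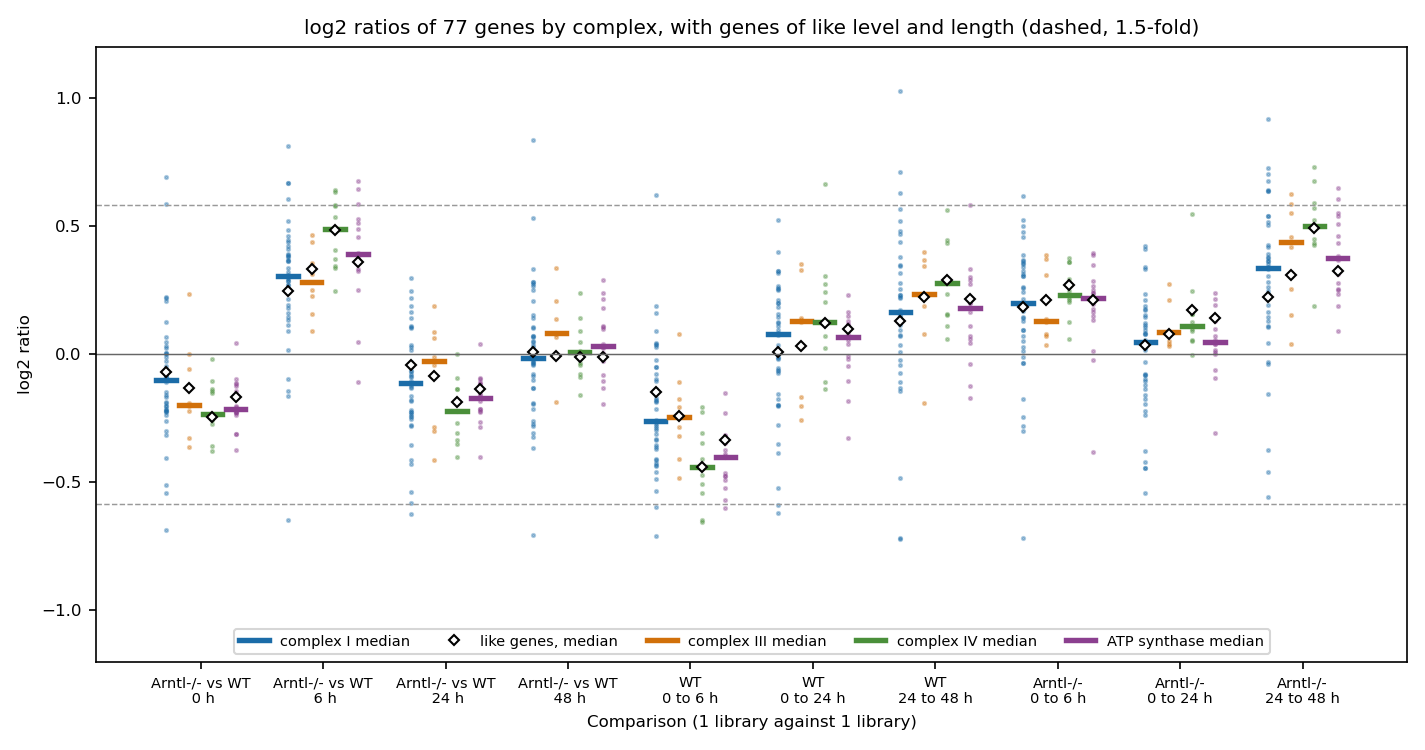
log2 ratios of the 77 genes (points) in 10 comparisons of 1 library with 1 library, with the median of each complex (bars) and the median of genes of like level and length (open diamonds). Bar and diamond of complex IV between the genotypes at 6 h are both at 0.49, and those of complex III at 0 h are at -0.20 and -0.13. The dashed lines mark 1.5-fold.

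The genotype ratios were small at 24 and 48 h. At 24 h the median was -0.14, -0.05 relative to like genes and -0.09 without size factors, with no gene at least 1.5-fold higher (2.92% of all genes) and Ndufc1 alone at least 1.5-fold lower (2.04%). Ndufc1, a small accessory subunit, was at 405.4 in WT and 263.2 in Arntl-/- cells at that time, and its values were closer at the other 3 times. It was not past 1.5-fold at 24 h relative to like genes or without size factors. At 48 h the median was 0.03, with 43 genes higher and 34 lower. Ndufaf7 was at least 1.5-fold higher (4.79% of all genes) and Ndufaf2 at least 1.5-fold lower (4.7%), both also relative to like genes and without size factors. Next to them were Uqcrc1, a core subunit of complex III (log2 ratio 0.34), and 3 accessory subunits of complex I. Ndufa8 was at 577.8 in Arntl-/- and 399.8 in WT cells (log2 ratio 0.53), Ndufb8 at 776.1 and 999.0 (-0.36), and Ndufb6 at 346.5 and 433.0 (-0.32). The macrophage markers had medians of -0.14 at 24 h (7 of 9 lower) and -0.09 at 48 h (6 of 9 lower), and at none of the 4 times was their part in the genotype ratios tested. No gene of the complexes had all 4 Arntl-/- values above or all below the 4 WT values, which was the case for 0.707% and 0.556% of all genes. Ndufaf1 was the 1 gene lower in Arntl-/- cells at all 4 times, beside 7.37% of all genes, and none was higher at all 4 times, beside 8.0%.

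In a limma fit of genotype over the 4 times with time as a block (3 residual degrees of freedom, 1 common genotype difference assumed for all times), none of the 77 genes had an adjusted p below 0.05, beside 39 of the 9897 genes (0.394%). At an unadjusted p below 0.05 there were 3 of the 77, beside 8.79% of all genes: Ndufaf1 lower and Ndufaf7 and Uqcrc1 higher in Arntl-/- cells. Ndufaf1 had a log2 difference of -0.39 (SE 0.15) and a limma adjusted p of 0.469, the lowest of the 77. Arntl itself was at -1.16 (SE 0.18), with a limma adjusted p of 0.00859. These SE and p values rest on scatter over the times and not on replicate mice. The median difference of the 77 genes was 0.02, and with the libraries of each time left out in turn it ranged from -0.09 (without 6 h) to 0.09 (without 0 h).

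The medians followed the depth of the libraries in part. In the deepest library, WT 6 h, the median deviation of the 77 genes from their own means was -0.31 on the log2 scale, and in Arntl-/- 0 h, the next deepest, it was -0.16. In the other libraries, from deeper to shallower, it was 0.05 (Arntl-/- 6 h), -0.09 (Arntl-/- 24 h), 0.02 (WT 0 h), 0.07 (WT 24 h), 0.25 (WT 48 h) and 0.27 (Arntl-/- 48 h). Arntl-/- 6 h stood outside this order, above Arntl-/- 24 h, which had almost the same depth, and above the shallower WT 0 h. Their median read density was 1.69 reads per exon base in WT 6 h, with a highest value of 4.92, and 0.73 and 0.72 in the 48 h libraries. The authors counted at most 3 tags per position, and the median density of all 9897 genes was 0.63 in WT 6 h and 0.15 in Arntl-/- 48 h. Like genes deviated by -0.21 in WT 6 h and by 0.19 and 0.21 in the 48 h libraries. Across the 77 genes, level and log2 ratio at 6 h were related (Pearson r = 0.66). For the ratio relative to like genes r was -0.02, and its construction from genes of like level brings this r near 0. Both are descriptions over genes that share 2 libraries. The part of depth and of this setting in the differences was not tested. The summed macrophage markers were, like the 77 genes, lowest at 6 h in WT and at 0 h in Arntl-/- cells, and highest at 48 h in both.

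**Figure D3:**
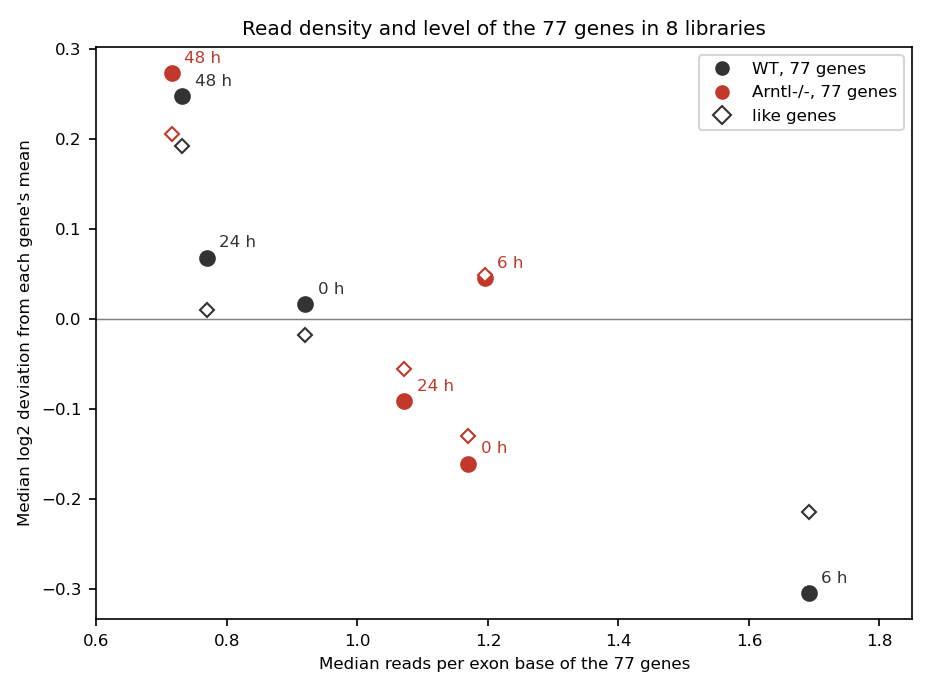
Median log2 deviation of the 77 genes from their own means (filled circles) and of genes of like level and length (open diamonds) against the median reads per exon base, for 8 libraries labelled with hours of KLA. The 77 genes go from 0.27 at the lowest density to -0.31 at the highest, the diamonds go the same way over a smaller range, and Arntl-/- 6 h lies above the others of like density.

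At 24 h of KLA the complexes stood near their starting levels in both genotypes. The median log2 ratio of 24 h to 0 h was 0.08 in WT and 0.06 in Arntl-/- cells, and 0.01 and -0.03 relative to like genes. In WT cells, Cox7a2l was at least 1.5-fold higher (7.8% of all genes) and Ndufa12 and Ndufs8 at least 1.5-fold lower (7.79%). Ndufa12 alone of these 3 was past 1.5-fold relative to like genes, with Cox7a2l at 0.56 and Ndufs8 at -0.55. In Arntl-/- cells no gene of the complexes was past the line in either direction (7.31% and 8.55% of all genes). The lowest ratio in Arntl-/- cells was that of Ndufab1, the mitochondrial acyl carrier protein and a subunit of complex I, which was at 266.5 at 0 h and 183.3 at 24 h (log2 ratio -0.54). Per complex the medians lay between 0.07 and 0.13 in WT and between 0.05 and 0.11 in Arntl-/- cells.

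At 6 h of KLA the 2 genotypes went opposite ways, and the difference was not tested. The median log2 ratio of 6 h to 0 h was -0.32 in WT cells (68 of 77 genes lower) and 0.20 in Arntl-/- cells (67 of 77 higher), beside -0.20 and 0.19 for like genes. Relative to like genes the medians were -0.08 and 0.02, and without size factors -0.16 and 0.15. The macrophage markers had medians of -0.41 in WT (8 of 9 lower) and 0.22 in Arntl-/- cells (8 of 9 higher), and their part was not tested. In WT cells the medians were -0.26 for complex I, -0.24 for complex III, -0.44 for complex IV and -0.40 for ATP synthase, beside -0.15, -0.24, -0.44 and -0.33 for like genes. In Arntl-/- cells they were 0.20, 0.13, 0.23 and 0.22, beside 0.18, 0.21, 0.27 and 0.21. In WT cells Atp5k, Cox4i1, Cox6c, Ndufb2 and Ndufb7 were at least 1.5-fold lower (3.15% of all genes) and Ndufaf4 at least 1.5-fold higher (4.33%). None of these 6 was past 1.5-fold relative to like genes, and without size factors Ndufaf4 alone was. In Arntl-/- cells Ndufaf1 was at least 1.5-fold higher (2.75%) and Ndufaf4 at least 1.5-fold lower (2.65%). Both stayed past the line relative to like genes, and without size factors Ndufaf4 alone did. Of the 77 genes, 13 went the same way in both genotypes, a share of 16.9%, beside 50.4% of all genes. Relative to like genes these shares were 33.8% and 55.5%. The comparison between the genotypes at 6 h and these changes use the same 6 h libraries.

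From 24 to 48 h the 77 genes were higher in both genotypes. The median log2 ratio was 0.19 in WT (64 of 77 higher) and 0.38 in Arntl-/- cells (71 of 77 higher), beside 0.16 and 0.26 for like genes. Relative to like genes the medians were -0.005 and 0.10, and without size factors 0.09 and 0.27. The macrophage markers had medians of 0.39 in WT (9 of 9 higher) and 0.36 in Arntl-/- cells (8 of 9 higher). The summed fibroblast and stromal markers and S100a8 were also higher at 48 h than at 24 h in both genotypes. S100a9 and Ltf were lower at 48 h than at 24 h in both genotypes, and Ltf had 0 reads at 48 h. The part of these markers was not tested. In Arntl-/- cells 14 genes were at least 1.5-fold higher, beside 5.88% of all genes, and none was at least 1.5-fold lower, beside 8.38%. They were Ndufa1, Ndufa3, Ndufa5, Ndufa12, Ndufa13, Ndufc1 and Ndufv3 of complex I, Uqcrh and Uqcrq of complex III, Cox6a1, Cox6b1 and Cox8a of complex IV, and Atp5k and Atp5l of ATP synthase. All 14 are accessory subunits, and relative to like genes Ndufc1 alone of them was past 1.5-fold. Without size factors Ndufa1, Ndufa5, Ndufc1 and Cox8a were. Ndufc1 had the largest ratio (0.92, interval 0.67 to 1.17), from its low value at 24 h. In WT cells Ndufa12, Ndufaf2 and Ndufb9 were at least 1.5-fold higher (6.74%) and Ndufaf4 and Ndufaf7 at least 1.5-fold lower (8.73%). Ndufb9 was not past the line relative to like genes, and without size factors Ndufaf2 was not.

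**Figure D4:**
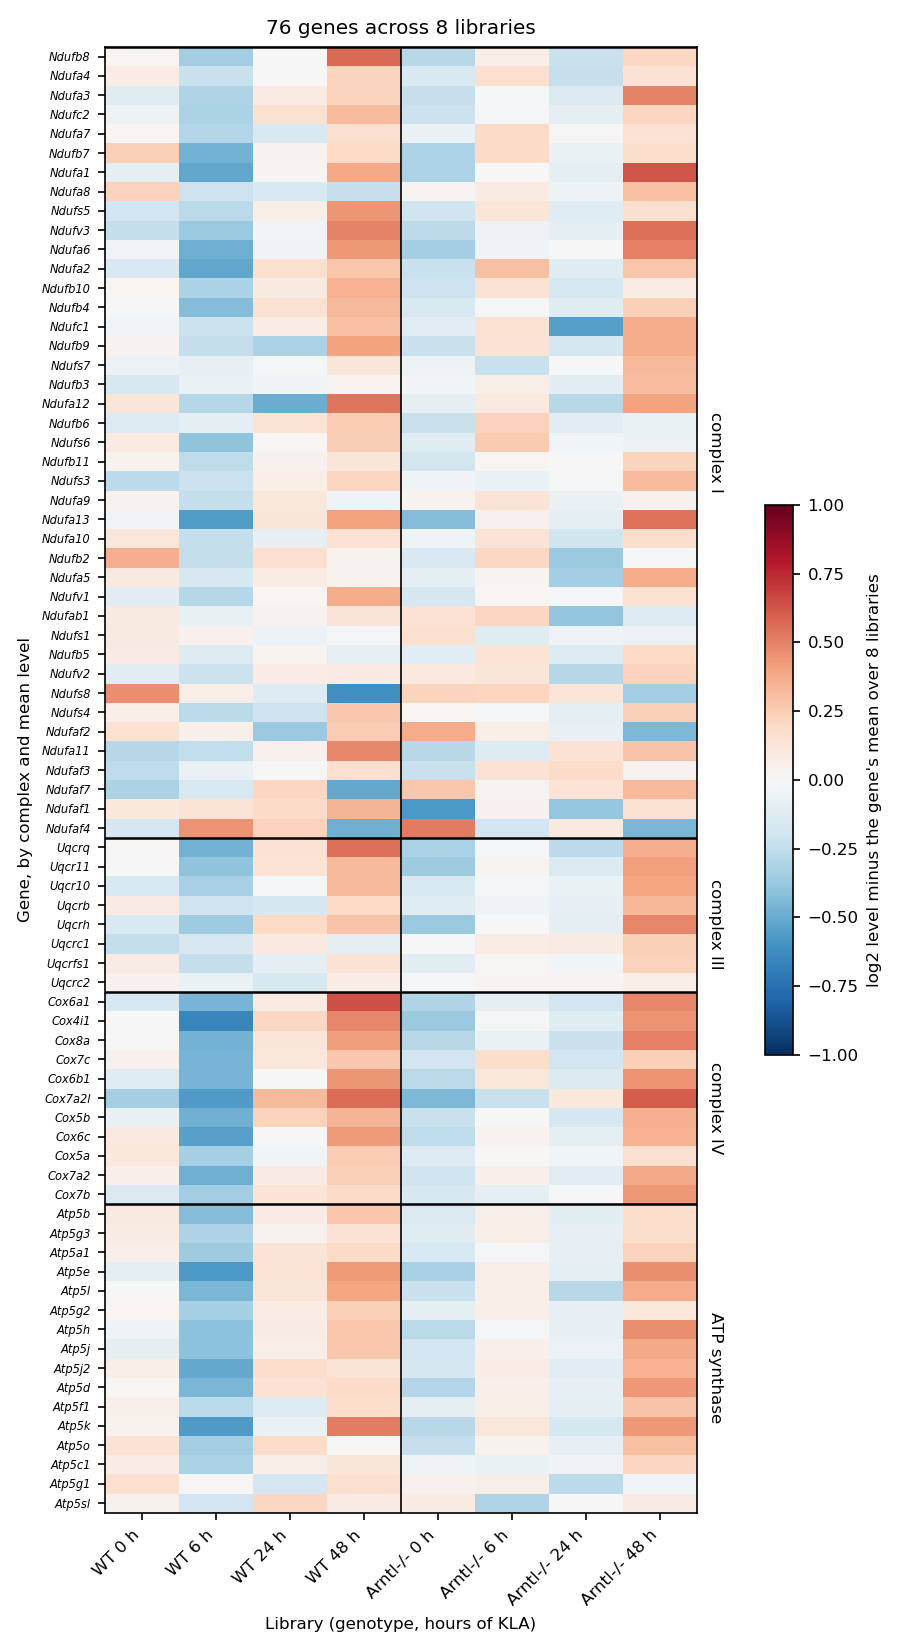
Level of each of 76 of the 77 genes in 8 libraries as the log2 difference from its own mean (colour, -1 to 1), grouped by complex and ordered by mean level. The WT 6 h column is mostly blue and the 48 h columns mostly red, while Ndufs8 is blue at 48 h in both genotypes.

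A small number of genes went the same way in both genotypes, by at least 1.2-fold both as measured and relative to like genes. From 0 to 24 h these were Cox7a2l and Ndufa11 upward (13.3% of all genes did so) and Atp5g1 and Ndufaf2 downward (13.0%). From 24 to 48 h they were Ndufa12, Ndufb9, Ndufs4 and Ndufv3 upward (8.38%) and Ndufaf4 and Ndufs8 downward (9.62%). None did so from 0 to 6 h, beside 4.42% and 2.81%.

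Cox7a2l, which ties complexes III and IV into supercomplexes (chr17:83901257-83913673, minus strand), was the complex IV gene past 1.5-fold from 0 to 24 h. It was at 670.8, 573.9, 1064 and 1252 in WT and 624.6, 728.2, 913.3 and 1293 in Arntl-/- cells at 0, 6, 24 and 48 h. The 24 and 48 h values were the higher ones in each genotype, and no early value reached a late one. From 0 to 24 h its log2 ratio was 0.67 (0.57 to 0.76) in WT and 0.55 (0.46 to 0.63) in Arntl-/- cells, and that of its like genes 0.11 and 0.14. Its paralogue Cox7a2, the subunit in the free enzyme, was at 463.4 and 471.7 in WT and 388.3 and 413.7 in Arntl-/- cells at these times. The share of Cox7a2l in the Cox7a set ranged from 58.6% to 68.5%.

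Ndufs8 (chr19:3908863-3912774, minus strand), a core subunit with iron-sulfur clusters on the path to ubiquinone, went the other way. It was at 234.0, 176.5, 155.4 and 111.1 in WT and 198.5, 197.3, 184.7 and 134.4 in Arntl-/- cells. The WT level was lower at each later time and the Arntl-/- level was close to its start until 24 h. From 24 to 48 h the log2 ratio was -0.48 (-0.83 to -0.15) in WT and -0.46 (-0.76 to -0.17) in Arntl-/- cells, while the median of the 77 genes was above 0 in both. Of the other core subunits of complex I, Ndufs1 ranged from 207.2 to 251.5, Ndufs3 from 280.7 to 419.0, Ndufs7 from 328.8 to 481.9, Ndufv1 from 219.0 to 344.7 and Ndufv2 from 145.9 to 208.6 over the 8 libraries.

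Ndufa12, an accessory subunit that takes its place late in assembly, was at 404.5, 304.3, 263.6 and 537.5 in WT and 346.7, 397.8, 307.2 and 491.0 in Arntl-/- cells. In both genotypes 24 h was the lowest time and 48 h the highest, with log2 ratios between them of 1.03 (0.79 to 1.26) and 0.68 (0.47 to 0.88). Its paralogue in assembly, Ndufaf2, holds the same place in the unfinished complex. Ndufaf2 was at 126.0, 117.8, 87.7 and 135.7 in WT and 146.8, 119.1, 107.8 and 83.2 in Arntl-/- cells, so the genotypes parted at 48 h, at a log2 ratio of -0.71 (-1.15 to -0.27) from 72 and 122 reads. Atp5g1 was lower at 24 h than at 0 h in both genotypes, at 338.1 and 269.3 in WT and 311.8 and 252.2 in Arntl-/- cells, whereas Atp5g2 was at 779.7 and 811.6 in WT and 720.9 and 729.9 in Arntl-/- cells.

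The 5 assembly factors of complex I that passed the filter had mean levels of 31.7 to 115.5. Ndufaf4 was at 27.3, 42.0, 36.1 and 21.9 in WT and 44.1, 26.8, 32.9 and 22.3 in Arntl-/- cells. The Arntl-/- library was higher at 0 h (log2 ratio 0.69, 0.46 to 0.93) and lower at 6 h (-0.65, -0.86 to -0.44), against the median of the complex I subunits each time (-0.15 and 0.34). Ndufaf1, an early assembly factor that works with Ecsit and Acad9, was at 53.9, 55.0, 57.1 and 63.3 in WT and 33.5, 51.5, 38.2 and 55.5 in Arntl-/- cells, with log2 ratios of -0.69, -0.09, -0.58 and -0.19. The intervals at 6 and 48 h (-0.35 to 0.16 and -0.58 to 0.20) reached over 0, and at 0 and 24 h it went the way of the complex I subunits (medians -0.15 and -0.12). Ndufaf7, a methyltransferase, was at 41.6, 46.5, 59.9 and 36.3 in WT and 62.5, 52.7, 56.8 and 64.9 in Arntl-/- cells, and was 1.79-fold higher in Arntl-/- cells at 48 h from 191 and 111 reads. Ndufaf3 ranged from 57.0 to 77.6 with no comparison past 1.5-fold.

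**Figure D5:**
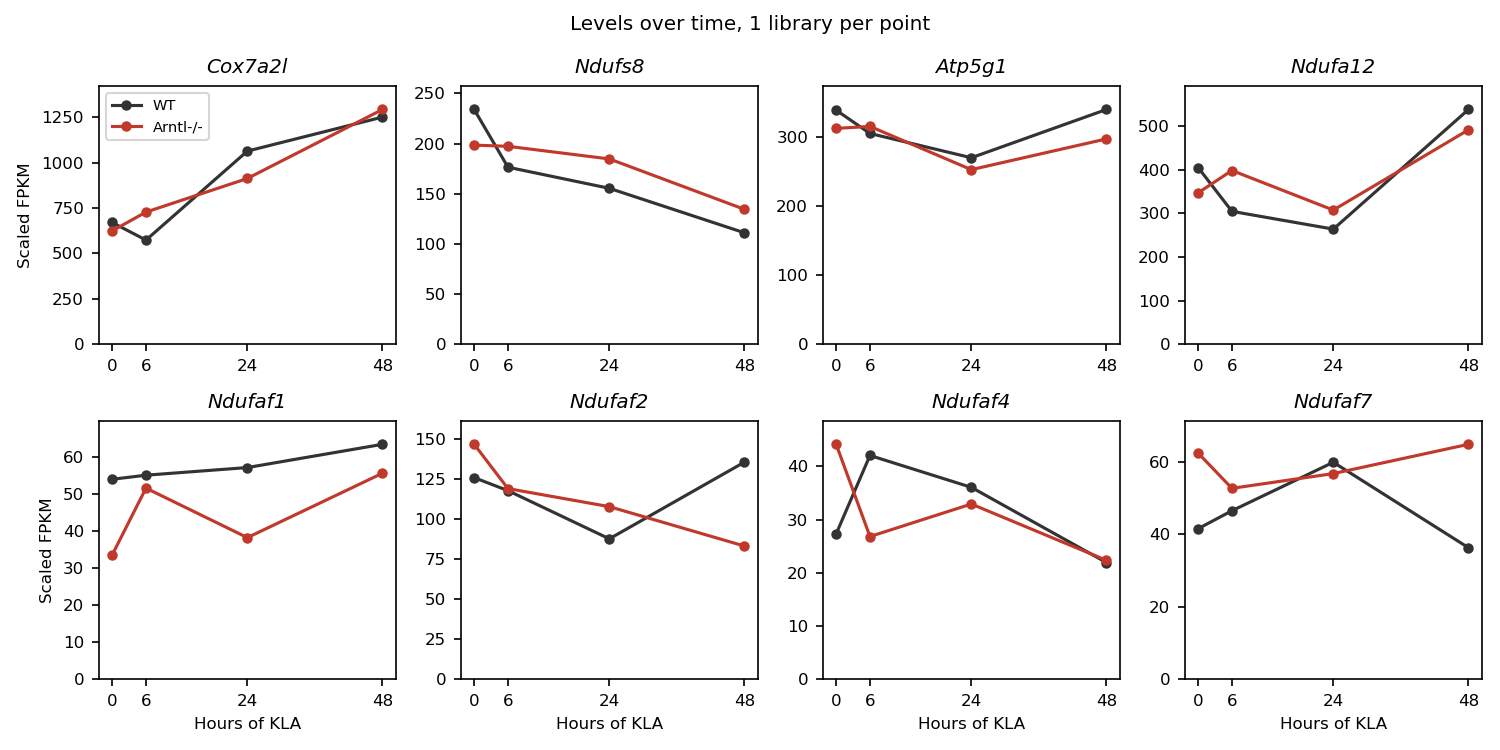
Scaled FPKM of 8 genes against hours of KLA in WT (black) and Arntl-/- (red) cells, 1 library per point and each axis from 0. Cox7a2l is higher and Ndufs8 lower at 48 h than at 0 h in both genotypes, and the lines of Ndufaf4 cross between 0 and 6 h.

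Among core subunits outside complex I, Uqcrc1 was at 291.4, 308.0, 366.4 and 321.1 in WT and 343.0, 360.5, 364.2 and 405.2 in Arntl-/- cells. The Arntl-/- value was the higher one at 3 times, with log2 ratios of 0.24 (0 h), 0.23 (6 h) and 0.34 (48 h), and was close to WT at 24 h (-0.01). Uqcrc2, its partner in the core of complex III, ranged from 254.7 to 300.1 and was within 1.2-fold between the genotypes at each time. Uqcrfs1, the Rieske iron-sulfur protein, ranged from 289.9 to 401.5. The catalytic Atp5b was at 1400, 975.1, 1395 and 1601 in WT and 1194, 1370, 1228 and 1490 in Arntl-/- cells, and relative to like genes its genotype log2 ratios were -0.04, 0.12, -0.03 and -0.04.

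Of the 45 other genes of the pathway that passed the filter, 0, 4, 4 and 3 were past 1.5-fold between the genotypes after 0, 6, 24 and 48 h, beside 3.93%, 3.69%, 4.96% and 9.49% of all genes. The 4 subunits of complex II had a median log2 ratio of 0.23 at 6 h, close to their like genes (0.22). Cyc1 and Cycs, cytochromes c1 and c, were at -0.41 and -0.36 at 24 h, both lower in Arntl-/- cells. Of the 9 assembly factors of complex IV, Sco1 was at 8.75 in Arntl-/- and 17.2 in WT cells at 48 h (48 and 98 reads). Sco2 was at 140.7 and 91.4 at that time, and Cox18 at 44.4 and 20.3 at 24 h (147 and 45 reads). Of the factors of ATP synthase, Atpaf1, a chaperone of the F1 part, was at 41.3 in Arntl-/- and 67.7 in WT cells at 24 h. Of the complex I factors outside the naming rule, Foxred1 was higher at 24 h (0.69) and Timmdc1 lower at 6 h (-0.68). Etfb, which carries electrons from fatty acid oxidation, was higher at 6 h (0.62).

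Regulators of mitochondrial genes included 1 that was past 1.5-fold between the genotypes at 3 times, each from 1 library against 1. Gabpb1, a subunit of the ETS-family factor NRF2, was at 79.8, 67.0, 71.9 and 90.8 in WT and 89.8, 39.4, 37.0 and 58.0 in Arntl-/- cells. The genotypes were close at 0 h (log2 ratio 0.17), and the Arntl-/- values were lower after KLA (-0.76, -0.96 and -0.65). At 6, 24 and 48 h, 1.79%, 2.04% and 4.7% of all genes were at least 1.5-fold lower. Over the 4 times the limma adjusted p of Gabpb1 was 0.294. Ppargc1b, a coactivator of mitochondrial biogenesis, was lower at 6 h (-0.74), and Ppargc1a had at most 3 reads in any library. Pprc1, a related coactivator, was at 162.7 and 92.3 in WT and 150.1 and 86.5 in Arntl-/- cells at 0 and 24 h. Esrra, a nuclear receptor for these genes, was higher at 24 h than at 0 h in both genotypes (0.52 and 0.40). The 15 genes with NRF1 letters and the 62 without had medians of 0.38 and 0.34 at 6 h.

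Reads of 21 of the 77 genes could be shared with intronless copies of their coding sequence (at least 95% identity over at least 80% of its length), as many as 8 for Atp5l, and their levels are uncertain to that extent. Ndufaf7 was not examined for copies. Cox7a2l, Ndufs8 and Ndufaf4 had no such copy, and Ndufa12 and Atp5g1 had 1 each. At 6 h the median genotype ratio was 0.39 over these 21 genes and 0.34 over 55 without a copy.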

How the data were processed

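The 8 RNA-seq libraries of BMDMs were analysed, and the 29 ChIP-seq and input samples of the series were not analysed here. Per the labels and the file header, the authors deposited FPKM values made with HOMER from STAR alignments of the read pairs to mm9. HOMER counted tags on both strands of RefSeq exons, with 1 transcript per gene and at most 3 tags per position, and set them relative to exon length in kb and to 10000000 reads per library. A further 4 value columns belong to no sample used here. Left out was 1 broken line. FPKM times length fell on whole multiples of 1 read (100% of low values within 0.1 of a whole number), which gave the reads behind each value. If both mates of a pair were counted, independent fragments are fewer.

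Size factors (median of ratios, 0.918 to 1.13) were applied to the FPKM, and log2 ratios used a pseudocount of 0.1. Comparisons at 1 time had 1 library per condition and no test. Genotype over the 4 times was tested with limma 3.58.1 (R 4.3.3, log2 scale, time as a block, trend on level, Benjamini-Hochberg adjustment over 9897 genes), a test added after seeing the data. Like genes were the 200 genes outside the complexes nearest in standardized log2 mean level and log2 length, and of them 7.48% were cytoplasmic ribosomal, 3.49% mitochondrial ribosomal and 2.39% proteasome genes. Named were the core subunits, the paralogue sets, and in each comparison the 3 highest and 3 lowest genes and those past 1.5-fold. Not every ratio of these genes is given. Cyc1, Cycs, Esrra and S100a9 were chosen after their values were seen. Because counting used both strands, reads of overlapping antisense genes cannot be told apart. The members and lists were chosen with earlier results of these data known. Coordinates and sequences are from the mm9 (NCBIM37) genome, and copies were found with blastn 2.17.0 from GENCODE coding sequences. The steps were tested on simulated data. Alternatives were no size factors, upper-quartile scaling, pseudocounts of 1 and 0.01, 3 other filters on low values, ratios relative to like genes with and without ribosomal and proteasome genes, a 1.2-fold line and, chosen after seeing the data, genes without copies. The tools were scipy 1.17.1, pandas 2.3.3, numpy 2.4.6 and matplotlib 3.10.9 under Python 3.11.15. Values of 1 gene of the complexes are not reported here singly, although it stays in the counts and medians.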

Additional observations from a re-analysis of the deposited data

Results flagged for a closer look

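From 0 to 6 h of KLA the WT and Arntl-/- libraries went opposite ways, with 1 library per condition, and the difference between the genotypes was not tested. The median log2 ratio of the 77 genes was -0.32 in WT and 0.20 in Arntl-/- cells, and -0.08 and 0.02 relative to genes of like level and length. Cox4i1 was at -0.66 in WT and 0.36 in Arntl-/- cells. Cox6c was at -0.65 and 0.29. Ndufb7 was at -0.71 and 0.50, Atp5k at -0.60 and 0.39, and Ndufb2 at -0.60 and 0.35. Ndufaf4, an assembly factor, went the other way in each genotype, at 0.62 in WT and -0.72 in Arntl-/- cells. From 24 to 48 h Ndufaf2, another assembly factor, was at 0.63 in WT and -0.37 in Arntl-/- cells, a difference that was not tested either. Relative to like genes the changes from 0 to 6 h were -0.16 and 0.09 for Cox4i1, -0.21 and 0.02 for Cox6c, -0.49 and 0.30 for Ndufb7, -0.25 and 0.12 for Atp5k, -0.48 and 0.18 for Ndufb2, and 0.49 and -0.62 for Ndufaf4. The changes of Ndufaf2 from 24 to 48 h were 0.64 and -0.43 on that scale.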

How the results depend on the processing

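No replicate could be left out, since each condition had 1 library. The limma fit of genotype over the 4 times, chosen after seeing the data, called 0 of the 77 genes with time as a block, 0 with no replicate block, 0 relative to like genes and 0 without the libraries of each time in turn. At an unadjusted p below 0.05 it had 3 of the 77 with the block and 0 without it, and without the 6 h libraries 17 lower and 1 higher (lowest adjusted p 0.0992), beside 8.79%, 1.5% and 17% of all genes. Relative to genes of like level and length (in brackets, without ribosomal and proteasome genes among them), the medians of the 77 genes were -0.038 (-0.069) between the genotypes at 0 h, 0.064 (0.10) at 6 h and -0.054 (-0.075) at 24 h. They were -0.082 (-0.11) in WT from 0 to 6 h and -0.0048 (0.0095) from 24 to 48 h, and 0.017 (0.030), -0.030 (-0.0046) and 0.098 (0.15) in Arntl-/- cells from 0 to 6, 0 to 24 and 24 to 48 h. Without size factors, the same medians were -0.083, 0.23 and -0.089 between the genotypes, -0.16 and 0.085 in WT, and 0.15, -0.0099 and 0.27 in Arntl-/- cells. With upper-quartile scaling the last was 0.45. The direction held for 8 of 10 medians relative to like genes, for 9 of 10 without ribosomal and proteasome genes and for 9 of 10 without size factors, and for 10 of 10 under the other settings. With a 1.2-fold line, 16, 56, 20 and 15 genes were past it between the genotypes at 0, 6, 24 and 48 h, 49, 18 and 30 in WT from 0 to 6, 0 to 24 and 24 to 48 h, and 31, 12 and 54 in Arntl-/- cells. The shares of all genes past it were 27.5%, 28.5%, 28.4% and 36.5%, then 38%, 45.9% and 46.7%, then 31.5%, 46% and 45.9%. Over the genes with no intronless copy, a setting chosen after seeing the data, 3 genes were past 1.5-fold in WT from 24 to 48 h and 1 between the genotypes at 48 h, and fewer genes were counted there by construction. Among those left out was Ndufaf7, which was past the line in both comparisons and was not examined for copies. Of the 46 single values past 1.5-fold, 11 stayed past it relative to like genes, 20 without size factors, 44 with a pseudocount of 1 and 45 with upper-quartile scaling. Beyond these constructions, the cause was not tested. Among the 77 genes, depth limits the assembly factors most, with as few as 72 reads.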
